A study of Mus musculus with 18 samples.

Results

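The prolactin receptor gene Prlr, the growth hormone receptor gene Ghr and 7 genes that act directly behind them (Jak2, Stat5a, Stat5b, Socs1, Socs2, Socs3 and Cish) were followed through RNA-seq of the mouse arcuate nucleus. They were taken by symbol, and make 9 of the 23235 gene symbols in the deposited tables. Levels are in FPKM, a count of fragments divided by transcript length and by library size. All 9 genes had 1 entry with an OK status in each library and passed the filter on low values. Female C57/BL mice of 3 genotypes had their ovaries removed and received injections of oil, or of estradiol benzoate (E2) at 250 ng on postoperative day 5 and then 1500 ng on day 6. They were fasted for 1 h and killed 24 h after the last dose, and the arcuate nucleus was dissected out. The genotypes are wild type (WT), ERKO, labelled as a knockout of estrogen receptor α (ERα, the product of Esr1), and KIKO, labelled ERα KIKO. Each genotype and treatment pair is a group of 3 libraries, which gives 6 groups and 18 libraries. As background, KIKO mice are known to pair a knocked-in ERα allele that cannot bind estrogen response elements with a null allele, so that ERα can act in them only without that contact. All 6 groups share the ovariectomy, and the oil groups are their hormone-poor controls. The labels tie no library to a single animal, so every p-value measures the spread between libraries, part of which may be technical.

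Prolactin and growth hormone are pituitary hormones whose receptors belong to the class I cytokine receptor family. A bound receptor activates the kinase JAK2, which phosphorylates STAT5A and STAT5B, and these enter the nucleus as dimers and switch on genes that include Cish and Socs2. The products of Cish, Socs1, Socs2 and Socs3 damp the same receptors, which closes a negative feedback loop. In the arcuate nucleus, prolactin acts on the tuberoinfundibular dopamine neurons that hold its own release in check, and growth hormone acts on neurons that control feeding and the growth hormone axis.

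STAT5 dimers bind the motif TTCNNNGAA, and ERα binds the estrogen response element, AGGTCA and TGACCT with any 3 bases between them. Promoters from RefSeq (GRCm38.p6, 250 bases before to 50 bases after each transcript start) were found for 8 of the 9 genes, 13 promoters in all, and Socs2 was not among them. The STAT5 motif, searched on both strands, was in 3 of these 13 promoters, compared with 8.33% of all 32544 promoters in the table. They were the promoter of Cish, that of Socs3 and promoter 2 of Prlr, where it began 110 bases before the start. No promoter of the 13 held the estrogen response element, which was in 7 of the 32544 (0.0215%). The 4 stretches below, each running from 250 bases before to 20 bases after a start, are shown because Cish and Socs3 carry the STAT5 motif and because Stat5a and Stat5b are neighbours on opposite strands with starts 9075 bases apart, of which Stat5a passed the test after E2. Capitals mark the STAT5 motif. A match describes these letters only, and does not show that a factor binds there.
Cish, chr9:107296409-107296678, + strand: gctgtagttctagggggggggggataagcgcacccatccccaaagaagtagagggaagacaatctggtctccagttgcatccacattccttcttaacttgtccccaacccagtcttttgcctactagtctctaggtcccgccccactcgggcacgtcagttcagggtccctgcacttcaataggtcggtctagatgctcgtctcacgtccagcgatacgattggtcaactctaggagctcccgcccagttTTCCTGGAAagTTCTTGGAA
Socs3, chr11:117969347-117969616, - strand: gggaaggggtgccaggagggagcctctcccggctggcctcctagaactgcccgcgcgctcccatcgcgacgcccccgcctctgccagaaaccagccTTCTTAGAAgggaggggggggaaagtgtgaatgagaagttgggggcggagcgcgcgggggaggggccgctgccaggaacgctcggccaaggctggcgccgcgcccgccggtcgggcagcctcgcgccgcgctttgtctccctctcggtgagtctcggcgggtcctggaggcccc
Stat5a, promoter 1, chr11:100859406-100859675, + strand: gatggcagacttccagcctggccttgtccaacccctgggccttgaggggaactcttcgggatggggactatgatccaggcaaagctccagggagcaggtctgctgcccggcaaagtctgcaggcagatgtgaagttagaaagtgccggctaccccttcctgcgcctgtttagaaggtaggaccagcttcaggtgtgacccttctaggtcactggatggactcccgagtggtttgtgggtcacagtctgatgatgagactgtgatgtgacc
Stat5b, promoter 1, chr11:100850562-100850831, - strand: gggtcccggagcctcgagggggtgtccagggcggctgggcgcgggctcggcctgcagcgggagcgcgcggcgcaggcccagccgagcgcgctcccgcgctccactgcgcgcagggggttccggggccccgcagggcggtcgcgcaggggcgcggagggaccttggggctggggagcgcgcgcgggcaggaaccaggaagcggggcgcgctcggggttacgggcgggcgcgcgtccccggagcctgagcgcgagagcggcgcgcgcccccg
The Cish promoter held 2 matches, which began at bases 1 and 12 of the transcript. The match in the Socs3 promoter began 154 bases before the start. The Stat5a and Stat5b stretches held no match.

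The widths of the deposited confidence bounds imply 12762300 to 26012400 fragments per library, and between 57.0 fragments (Socs1) and 2710 fragments (Stat5b) for a single one of the 9 genes in a library. One library stood apart from the rest: replicate 3 of the ERKO E2 group correlated at 0.919 to 0.953 with the other 17 libraries over log2(FPKM + 1), which correlated at 0.963 to 0.995 among themselves. Its summed FPKM over 4 magnocellular and paraventricular neuron markers (Avp, Oxt, Sim1 and Crh) was 20501, against 1743 to 7266 in the other 17. Avp and Oxt are the genes of the vasopressin and oxytocin cells that lie outside the arcuate nucleus. Avp alone was 13107 FPKM in this library. All 10 arcuate neuron markers were found, with none at 0 in any library and a sum of 2554 to 5807 FPKM. Esr1, the targeted gene, was 2.09 ± 0.417 FPKM (SD, n = 3) in ERKO oil and 1.49 ± 1.13 FPKM in ERKO E2, compared with 8.05 ± 3.39 FPKM in WT oil and 4.86 ± 1.26 FPKM in WT E2. The KIKO means were 3.65 ± 0.637 FPKM with oil and 3.27 ± 0.552 FPKM with E2. ERKO differed from WT with oil by -1.49 ± 0.32 on the log2(FPKM + 1) scale (SE; limma, adjusted p = 0.0367). A gene row does not tell fragments of a deleted exon from those of the rest, so residual Esr1 signal is not a measure of receptor.

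Transcripts of the 2 hormones themselves were at or near 0. Prl was listed at 0 FPKM in 17 of 18 libraries and at 0.647 FPKM in KIKO oil replicate 1. Gh was listed at 0 FPKM in 16 libraries, and at 0.0895 and 0.213 FPKM in 1 KIKO oil and 1 KIKO E2 library. Both hormones reach the arcuate nucleus from the pituitary. A list of 9 pituitary and pars tuberalis markers, which includes Prl and Gh, summed to 2.33 to 362 FPKM per library. Of the 9, 2 to 7 were at 0 in a library. The spread lay within groups too, from 3.31 to 362 FPKM in WT oil and from 2.79 to 357 FPKM in WT E2. Cga alone was 0, 170 and 307 FPKM in WT oil and 0, 0.424 and 294 FPKM in WT E2.

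In the WT oil group, Stat5b was the most abundant of the 9 genes at 24.0 ± 3.55 FPKM, followed by Ghr at 19.2 ± 5.24 FPKM and Jak2 at 13.5 ± 0.250 FPKM. The libraries of these 3 genes overlapped from each gene to the next. Cish at 9.81 ± 1.39 FPKM, Prlr at 9.53 ± 2.64 FPKM, Socs2 at 8.58 ± 0.990 FPKM and Socs1 at 6.81 ± 1.58 FPKM also overlapped between neighbours, but all lay under every Jak2 library. Socs3 at 5.69 ± 0.364 FPKM overlapped Socs1. Stat5a was the lowest at 4.36 ± 1.03 FPKM, with all 3 of its libraries under those of Socs3. FPKM values are per length, which allows only a rough comparison across genes. The annotated lengths behind them are not given in the sources used here. As a further limit, Stat5a and Stat5b transcripts share 608 windows of 50 bases, 15.8% of the Stat5a windows and 11.8% of the Stat5b windows. Fragments from those windows may have been split between the 2 genes by the authors' counting.

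Both receptors were expressed in all 18 libraries, and neither passed the test in any of the 11 comparisons. Prlr, the receptor of prolactin, was 6.58, 10.3 and 11.7 FPKM in WT oil and 9.24, 8.81 and 9.63 FPKM in WT E2. The E2 libraries thus lay within the range of the oil libraries. KIKO libraries had 7.86, 8.82 and 7.39 FPKM of Prlr with oil and 7.17, 7.29 and 6.29 FPKM with E2. ERKO libraries had 9.21, 9.12 and 10.6 FPKM with oil and 8.44, 8.38 and 5.05 FPKM with E2. In both mutants every E2 library was under every oil library, but the gaps were small. The change in ERKO was -0.39 ± 0.18 on the log2(FPKM + 1) scale (limma, adjusted p = 0.473, n = 3), and it was -0.17 without ERKO E2 replicate 3.

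Ghr, the receptor of growth hormone, was 13.3, 23.1 and 21.3 FPKM in WT oil and 17.9, 13.7 and 20.5 FPKM in WT E2. The other 4 groups had means of 17 ± 1.74 FPKM (KIKO oil), 17.3 ± 1.09 FPKM (KIKO E2), 18.3 ± 0.839 FPKM (ERKO oil) and 16.7 ± 2.58 FPKM (ERKO E2). Every group overlapped WT oil. Over 18 libraries Ghr correlated at r = 0.65 with the summed pituitary and pars tuberalis markers and at 0.62 with the summed astrocyte markers. Their part in the Ghr values was not tested. WT oil replicate 1 had the lowest value of its group for every gene of the set except Socs3. ERKO E2 replicate 3 had the lowest of its group for every gene except Socs2 and Cish.

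Jak2, the kinase that both receptors use, varied least, from 13.2 to 17.7 FPKM over all libraries. Its values were 13.2, 13.7 and 13.6 FPKM in WT oil and 16.7, 16.7 and 17.7 FPKM in ERKO oil, with no overlap between the groups. KIKO oil libraries lay between them at 15.8, 16.0 and 14.7 FPKM. The ERKO oil difference from WT oil was 0.31 ± 0.10 on the log2(FPKM + 1) scale and did not pass the threshold (limma, adjusted p = 0.0965). It passed when ERKO E2 replicate 3, which is in neither group, was left out of the shared estimate of spread (adjusted p = 0.0176). With E2, Jak2 was 13.9 ± 0.805 FPKM in WT, 14.6 ± 2.04 FPKM in KIKO and 15.1 ± 1.39 FPKM in ERKO, and the groups overlapped.

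**Figure D1:**
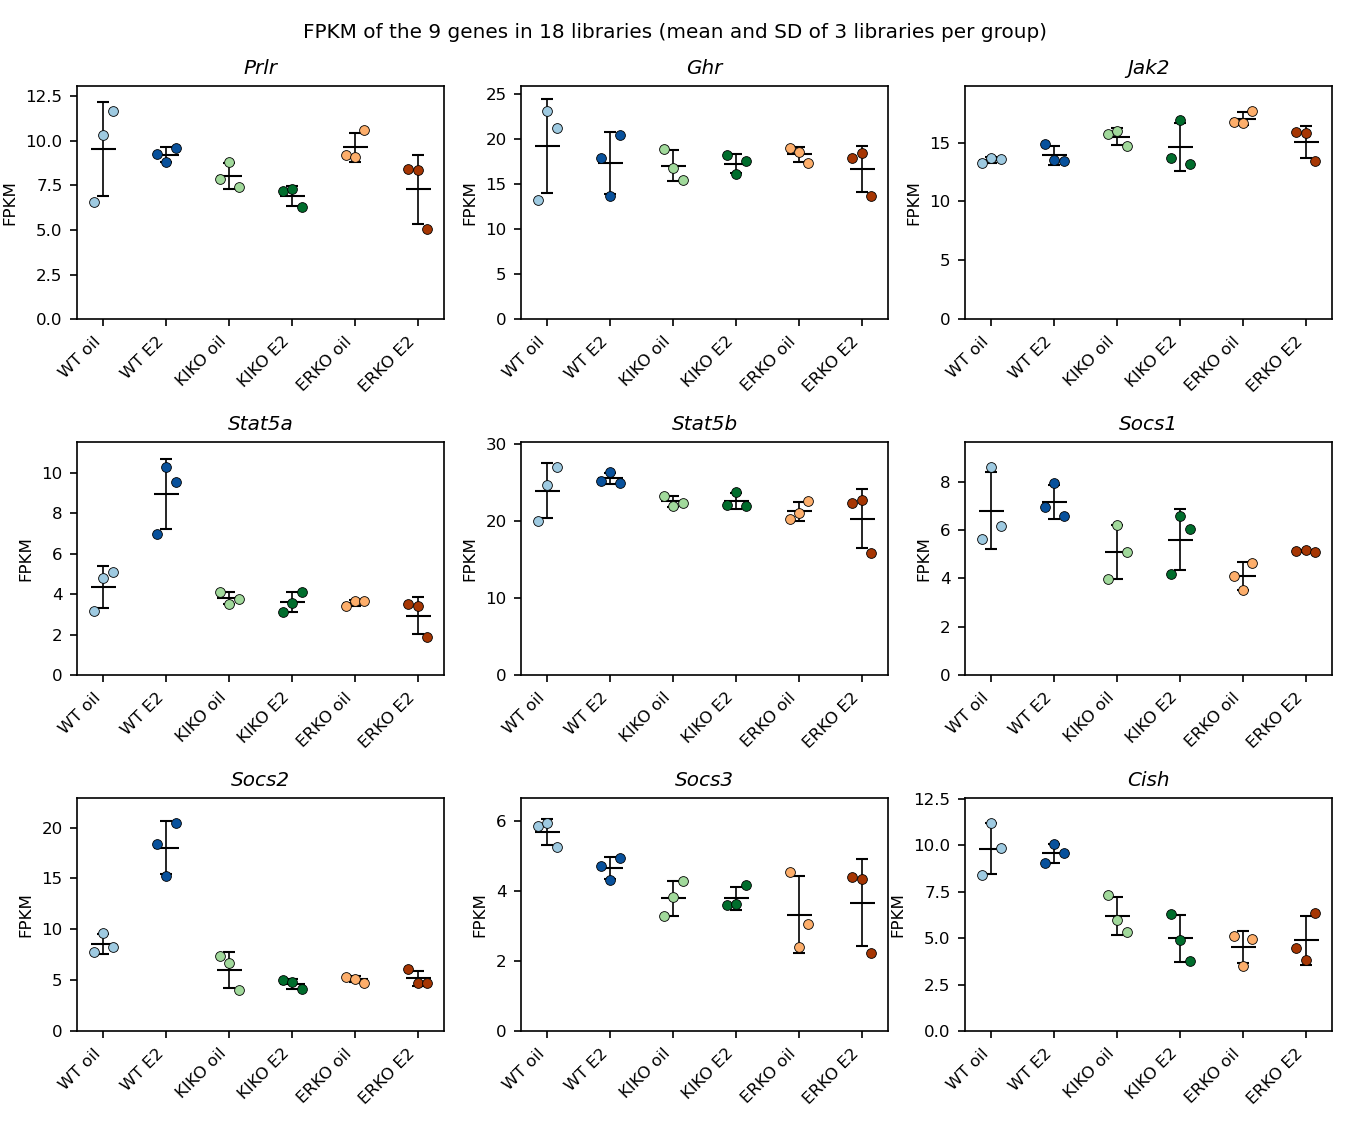
FPKM (linear axis from 0) of each of the 9 genes in every library, 1 panel per gene and 1 point per library, with the mean (long bar) and SD (error bar) of the 3 libraries in each of the 6 groups. Socs2 and Stat5a are high in the 3 WT E2 libraries, at 15.2 to 20.4 and 6.99 to 10.3 FPKM, while Cish is highest in both WT groups, at 8.41 to 11.2 FPKM.

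E2 given to wild-type mice raised 2 of the 9 genes, Socs2 and Stat5a, and lowered none. Across all 14775 genes tested, 116 passed in this comparison (limma, adjusted p below 0.05), or 0.785%. Socs2, which encodes a feedback inhibitor of growth hormone signalling, was 7.76, 9.68 and 8.31 FPKM with oil and 18.4, 15.2 and 20.4 FPKM with E2. Every E2 library was thus well above every oil library. The group mean went from 8.58 ± 0.990 to 18 ± 2.62 FPKM, a 2.10-fold rise, with a log2(FPKM + 1) change of 0.99 ± 0.17 (limma, adjusted p = 0.00801). Socs2 ranked 53 of 14775 genes by p-value. The call was lost in 1 of 16 alternatives, without WT E2 replicate 3 (change of 0.89, adjusted p = 0.0533).

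Stat5a, 1 of the 2 transcription factors of the pathway, was 3.18, 4.81 and 5.10 FPKM in WT oil and 6.99, 10.3 and 9.54 FPKM in WT E2. These groups did not overlap either. Its mean rose 2.05-fold, from 4.36 ± 1.03 to 8.94 ± 1.73 FPKM, with a log2(FPKM + 1) change of 0.89 ± 0.19 (limma, adjusted p = 0.0323). This call was less firm than that of Socs2: it held in 10 of 16 alternatives, with adjusted p-values from 0.00341 to 0.159. It was lost without WT oil replicate 1 (0.149), WT oil replicate 2 (0.0572), WT E2 replicate 2 (0.159) or WT E2 replicate 3 (0.137), with a pseudocount of 0.1 (0.0578), and when the fit held the WT libraries alone (0.118). In a dissected tissue, a change in the number of expressing cells and a change of RNA per cell cannot be told apart, here and in all comparisons that follow.

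Stat5b, the neighbouring paralog, was 20.1, 24.7 and 27.0 FPKM in WT oil and 25.3, 26.4 and 25 FPKM in WT E2, with overlapping groups. The ratio of Stat5b to Stat5a FPKM within a library therefore went from 6.32, 5.14 and 5.31 in WT oil to 3.61, 2.56 and 2.62 in WT E2. All 15 libraries of the other 5 groups had a ratio between 5.14 and 8.45. Only the 3 WT E2 libraries lay under that range. The ratio is a description, with no test of its own, and how the authors' counting treated the shared windows was not tested.

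**Figure D2:**
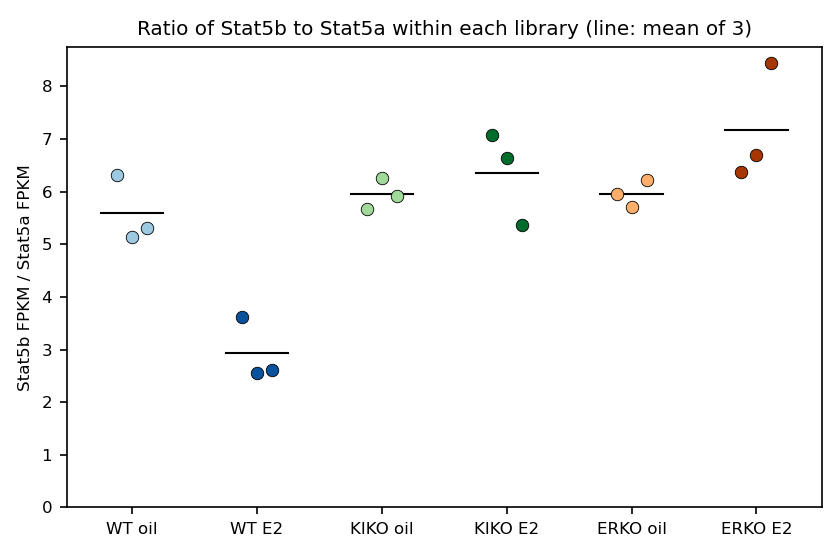
Ratio of Stat5b FPKM to Stat5a FPKM (vertical axis, no unit, from 0) in each library, by group; the line is the mean of 3 libraries. The 3 WT E2 points lie at 2.56 to 3.61, under the 5.14 to 8.45 of the other 15 libraries.

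The other feedback inhibitors did not pass the test in WT mice. Cish, a direct STAT5 target in many cell types, was 8.41, 11.2 and 9.83 FPKM with oil and 9.04, 10.1 and 9.58 FPKM with E2, so that the E2 libraries lay inside the oil range. The ratio of Socs2 to Cish was 0.923, 0.866 and 0.845 in WT oil and 2.04, 1.51 and 2.13 in WT E2. Socs3, an inhibitor that acts strongly on leptin and interleukin 6 family receptors, was 5.85, 5.95 and 5.27 FPKM with oil and 4.71, 4.32 and 4.94 FPKM with E2. These Socs3 groups did not overlap, yet the difference did not pass (-0.24 ± 0.19, limma, adjusted p = 0.771). Socs1, an inhibitor that blocks JAK kinases directly, was 6.81 ± 1.58 and 7.15 ± 0.713 FPKM. The 7 genes that did not pass had log2(FPKM + 1) changes from -0.24 (Socs3) to 0.10 (Stat5b), and the smallest adjusted p among them was 0.771. Groups without overlap were found for 3 of the 9 genes (Socs2, Stat5a and Socs3), compared with 15.8% of all genes tested. Of 11 cell type marker lists, 1 also separated the WT groups without overlap: the 10 arcuate neuron markers summed to 4588 to 5410 FPKM in WT oil and 3050 to 3612 FPKM in WT E2. The members of this list went both ways. Kiss1 fell from a mean of 433 to 38.0 FPKM, and Cartpt from 522 to 274 FPKM. Agrp rose from 179 to 286 FPKM, and Ghrh from 127 to 175 FPKM. The sum therefore does not count neurons. The arcuate sum correlated over 18 libraries with Stat5a at r = -0.23 and with Socs2 at 0.03, and its part in the E2 result was not tested.

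None of the 9 genes passed the test for E2 against oil in KIKO mice, and none did in ERKO mice. Of all genes tested, 1 passed in KIKO (0.00677%) and 0 in ERKO (0%; 1067 had an unadjusted p below 0.05). Socs2 was 7.35, 6.66 and 4.04 FPKM in KIKO oil and 5.06, 4.84 and 4.10 FPKM in KIKO E2. In ERKO it was 5.36, 5.12 and 4.77 FPKM with oil and 6.07, 4.71 and 4.75 FPKM with E2. The groups overlapped within both mutants, and no mutant library reached the lowest WT oil library. The Stat5a groups overlapped as well, at 4.11, 3.51 and 3.78 FPKM in KIKO oil and 3.13, 3.59 and 4.10 FPKM in KIKO E2. Its ERKO values were 3.40, 3.68 and 3.65 FPKM with oil and 3.51, 3.40 and 1.88 FPKM with E2. The lowest of these, 1.88 FPKM, belongs to the library that stood apart. Changes of the 9 genes in KIKO ran from -0.28 (Socs2) to 0.11 (Socs1) on the log2(FPKM + 1) scale, with a largest SE of 0.19. Beside Prlr, the 8 genes in ERKO ran from -0.25 (Stat5a) to 0.27 (Socs1). Without ERKO E2 replicate 3 these 8 ran from -0.10 (Jak2) to 0.34 (Socs3), with Stat5a at -0.04. Oil and E2 did not overlap for 1 of 9 genes in KIKO, Prlr (7.41% of all genes), and for 3 of 9 in ERKO, Prlr, Jak2 and Socs1 (12.3% of all genes).

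Whether the E2 response itself differed between genotypes was tested as an interaction. The 2 interactions share the WT libraries. The Socs2 response was smaller in KIKO than in WT by -1.26 ± 0.24 on the log2(FPKM + 1) scale, which fell just short of the threshold (limma, adjusted p = 0.0540). Of 22 alternatives, 5 took it past the threshold (adjusted p-values of 0.00423 to 0.201 over the 22), among these without KIKO oil replicate 3 (0.00423) and without ERKO E2 replicate 3 (0.0247). The ERKO minus WT difference for Socs2 was -0.97 ± 0.24 (adjusted p = 0.119) and passed in none of 21 alternatives. For Stat5a the differences were -0.96 ± 0.26 in KIKO (adjusted p = 0.375) and -1.14 ± 0.26 in ERKO (adjusted p = 0.107), and neither passed in any alternative. Without ERKO E2 replicate 3 the ERKO difference for Stat5a was -0.93. Among all genes, 0.135% passed for KIKO minus WT and 0.277% for ERKO minus WT. A response of Socs2 and Stat5a that depends on genotype is thus seen in the means, and was not established by the test of the difference.

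**Figure D3:**
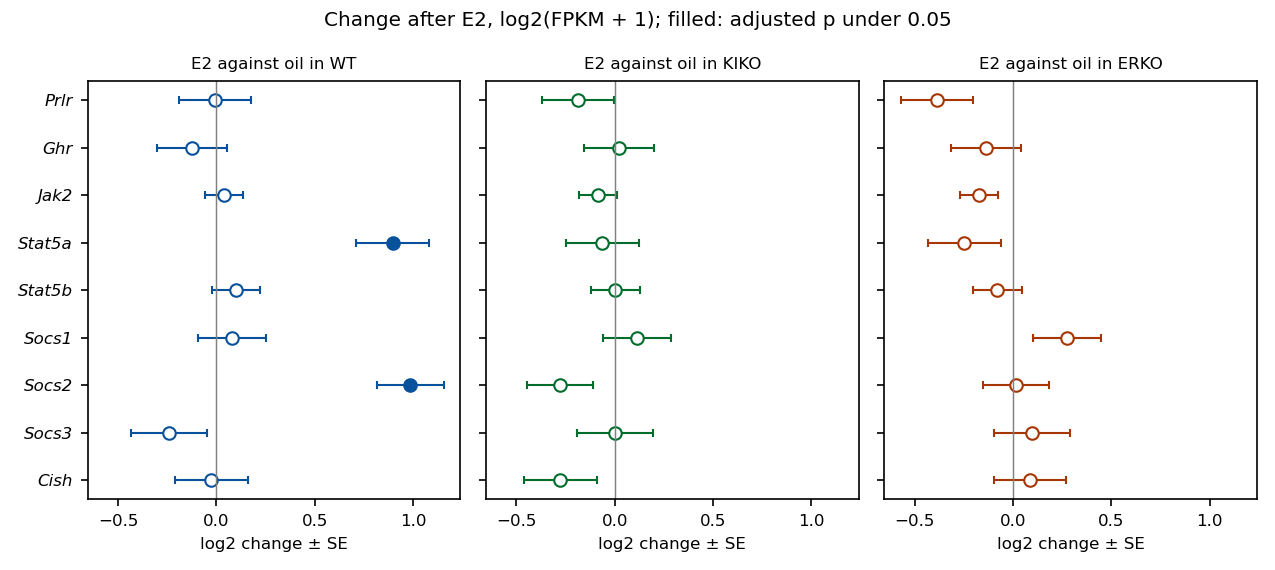
Change of each of the 9 genes after E2 (horizontal axis, difference in log2(FPKM + 1) between 3 E2 and 3 oil libraries, with SE) in WT, KIKO and ERKO mice; filled points have a limma adjusted p below 0.05. Only Stat5a (0.89) and Socs2 (0.99) in WT are filled.

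Under E2, the mutants had lower levels of 3 of the 9 genes than WT, the same 3 in each mutant: Socs2, Stat5a and Cish. All genes tested gave 0.948% past the threshold in KIKO against WT and 1.30% in ERKO against WT. The 2 comparisons share the 3 WT E2 libraries, which are also those of the E2 response in WT, so that they do not stand for independent evidence. Socs2 had a KIKO mean of 4.67 ± 0.505 FPKM, 0.259 of the WT mean of 18 FPKM (change of -1.74 ± 0.17, limma, adjusted p = 3.01e-05). Its ERKO mean was 5.18 ± 0.777 FPKM, 0.287 of the WT mean (-1.62 ± 0.17, adjusted p = 4.77e-05). Both Socs2 calls held in every alternative run, 16 in KIKO and 15 in ERKO. The WT E2 libraries (15.2 to 20.4 FPKM) and the 6 mutant E2 libraries (4.10 to 6.07 FPKM) were far apart.

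Stat5a under E2 was 3.6 ± 0.484 FPKM in KIKO, 0.403 of the WT mean of 8.94 FPKM (-1.10 ± 0.19, limma, adjusted p = 0.00700). In ERKO it was 2.93 ± 0.909 FPKM, 0.328 of the WT mean (-1.35 ± 0.19, adjusted p = 0.00102). The KIKO call was lost without WT E2 replicate 2 (adjusted p = 0.0568), and the ERKO call with only the compared groups in the fit (0.235). Without ERKO E2 replicate 3, the library with 1.88 FPKM, the ERKO call held.

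Cish under E2 was 6.30, 4.89 and 3.77 FPKM in KIKO and 4.49, 3.83 and 6.36 FPKM in ERKO, compared with 9.04, 10.1 and 9.58 FPKM in WT. All mutant libraries were thus under all WT libraries. The KIKO mean was 0.521 of the WT mean (-0.84 ± 0.18, limma, adjusted p = 0.0426) and the ERKO mean 0.512 of it (-0.86 ± 0.18, adjusted p = 0.0308). These calls were the least firm: they held in 8 of 16 and 7 of 15 alternatives, with adjusted p-values from 0.00714 to 0.220 and from 0.00315 to 0.450. Leaving out any single WT E2 library lost both (0.0784 to 0.195), as did a block on the replicate number (0.0747 in KIKO and 0.0556 in ERKO). So did leaving out KIKO E2 replicate 2 (0.172) or 3 (0.220) for KIKO, and ERKO E2 replicate 1 (0.101) or 2 (0.0741) for ERKO.

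The other 6 genes did not pass against WT under E2. Stat5b was 22.6 ± 1.02 FPKM in KIKO and 20.3 ± 3.83 FPKM in ERKO, compared with 25.5 ± 0.732 FPKM in WT, and its ERKO difference was -0.33 ± 0.12 (limma, adjusted p = 0.285), or -0.17 without ERKO E2 replicate 3. Socs1 was 4.19, 6.58 and 6.04 FPKM in KIKO and 5.14, 5.19 and 5.09 FPKM in ERKO, compared with 6.93, 7.95 and 6.57 FPKM in WT, and its ERKO difference was -0.40 ± 0.17 (adjusted p = 0.379). All 6 genes ran from -0.37 (Prlr) to 0.06 (Jak2) in KIKO, and the 4 besides Stat5b and Socs1 ran from -0.33 (Prlr) to 0.10 (Jak2) in ERKO. Without ERKO E2 replicate 3 the Prlr difference in ERKO was -0.12. Groups did not overlap for 6 of the 9 genes in KIKO against WT (21.9% of all genes) and for 6 of 9 in ERKO against WT (11.0%), all lower in the mutant. Besides Socs2, Stat5a and Cish, these were Prlr and Stat5b in both mutants, Socs3 in KIKO and Socs1 in ERKO.

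Marker sums of vessels, neurons and the ventromedial nucleus were set beside these results. The neuron sum overlapped between all the groups given here. The vessel sum overlapped between WT E2 and WT oil. The summed FPKM of 6 of 6 endothelial and vessel markers, none at 0 in any library, was 64.6 to 67.1 in WT E2, above all KIKO E2 (44.3 to 57.3) and ERKO E2 (39.4 to 62.1) libraries, and 43.8 to 66.9 in WT oil. Over 18 libraries this sum correlated with Socs2 at r = 0.65, with Cish at 0.59 and with Stat5a at 0.52, given as descriptions. Among the vessel markers, Cldn5, Flt1 and Kdr each overlapped between WT E2 and the E2 group of either mutant. Cldn5 was 24.8 to 36.6 FPKM in WT E2, 20.2 to 25.6 FPKM in KIKO E2 and 15.5 to 41.3 FPKM in ERKO E2. The sum of 5 of 5 neuron markers, none at 0, was 663 to 784 in WT E2, 768 to 772 in WT oil, 759 to 787 in KIKO E2 and 746 to 803 in ERKO E2, and correlated with Stat5a at r = -0.59 and with Socs2 at -0.53. The 4 of 4 markers of the neighbouring ventromedial nucleus, none at 0, summed to 10.4 to 20.2 FPKM in WT E2, 21.6 to 38.2 FPKM in KIKO E2 and 15.7 to 26.0 FPKM in ERKO E2, with r = -0.50 for Stat5a and -0.52 for Socs2. Of the 11 lists, 2 separated KIKO E2 from WT E2 without overlap (vessels and ventromedial nucleus) and 1 separated ERKO E2 from WT E2 (vessels). Among the ventromedial markers, Gldn was 5.51, 8.46 and 11.1 FPKM in KIKO E2 and 0.738, 0.750 and 0.646 FPKM in WT E2. Nr5a1 and Fezf1 each overlapped between these groups. The part of vessels, neurons and the ventromedial nucleus in the results was not tested.

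With oil, where no estradiol was given, Cish was lower in ERKO than in WT, and none of the other 8 genes passed in either mutant. Its libraries had 8.41, 11.2 and 9.83 FPKM in WT oil, 7.29, 5.96 and 5.31 FPKM in KIKO oil and 5.10, 3.51 and 4.93 FPKM in ERKO oil. The 3 groups did not overlap one another. The ERKO mean of 4.51 ± 0.876 FPKM was 0.460 of the WT mean of 9.81 ± 1.39 FPKM (-0.98 ± 0.18, limma, adjusted p = 0.0273). Of all genes tested, 1.43% passed in this comparison. The call held in 12 of 16 alternatives and was lost without WT oil replicate 2 (0.0879) or ERKO oil replicate 1 (0.112), 2 (0.110) or 3 (0.0926). In KIKO the Cish difference was -0.59 ± 0.18 (adjusted p = 0.267), in a comparison where 0.0135% of all genes passed. The WT mean of Cish was thus 9.81 FPKM with oil and 9.56 FPKM with E2, and under either treatment all 6 mutant libraries lay under all 3 WT libraries.

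Socs1, Socs2 and Socs3 also had lower values in all 3 ERKO oil libraries than in all 3 WT oil libraries, without passing the threshold. Socs2 was 5.09 ± 0.297 FPKM compared with 8.58 ± 0.990 FPKM (-0.65 ± 0.17, limma, adjusted p = 0.0596). Socs1 was 4.11, 3.53 and 4.66 FPKM compared with 5.64, 8.60 and 6.17 FPKM (-0.60 ± 0.17, adjusted p = 0.0806). Socs3 was 4.55, 2.39 and 3.05 FPKM compared with 5.85, 5.95 and 5.27 FPKM (-0.66 ± 0.19, adjusted p = 0.0843). All 3, and Jak2 in the opposite direction, passed when ERKO E2 replicate 3 was left out of the fit, with adjusted p-values of 0.0120, 0.0206, 0.00744 and 0.0176 for Socs2, Socs1, Socs3 and Jak2, so the count of genes past the threshold went from 1 to 5 of 9. In the same fit the share of all genes past it went from 1.43% to 22.5% (3319 of 14775). No library of the comparison itself is removed by that step, which acts on the shared estimate of spread. In KIKO oil, Socs2 (-0.48 ± 0.17, adjusted p = 0.325) and Socs3 (-0.48 ± 0.19, adjusted p = 0.391) did not pass, and the other 6 genes ran from -0.35 (Socs1) to 0.18 (Jak2). Groups with oil did not overlap for 4 of 9 genes in KIKO against WT (21.9% of all genes) and for 5 of 9 in ERKO against WT (39.3%).

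**Figure D4:**
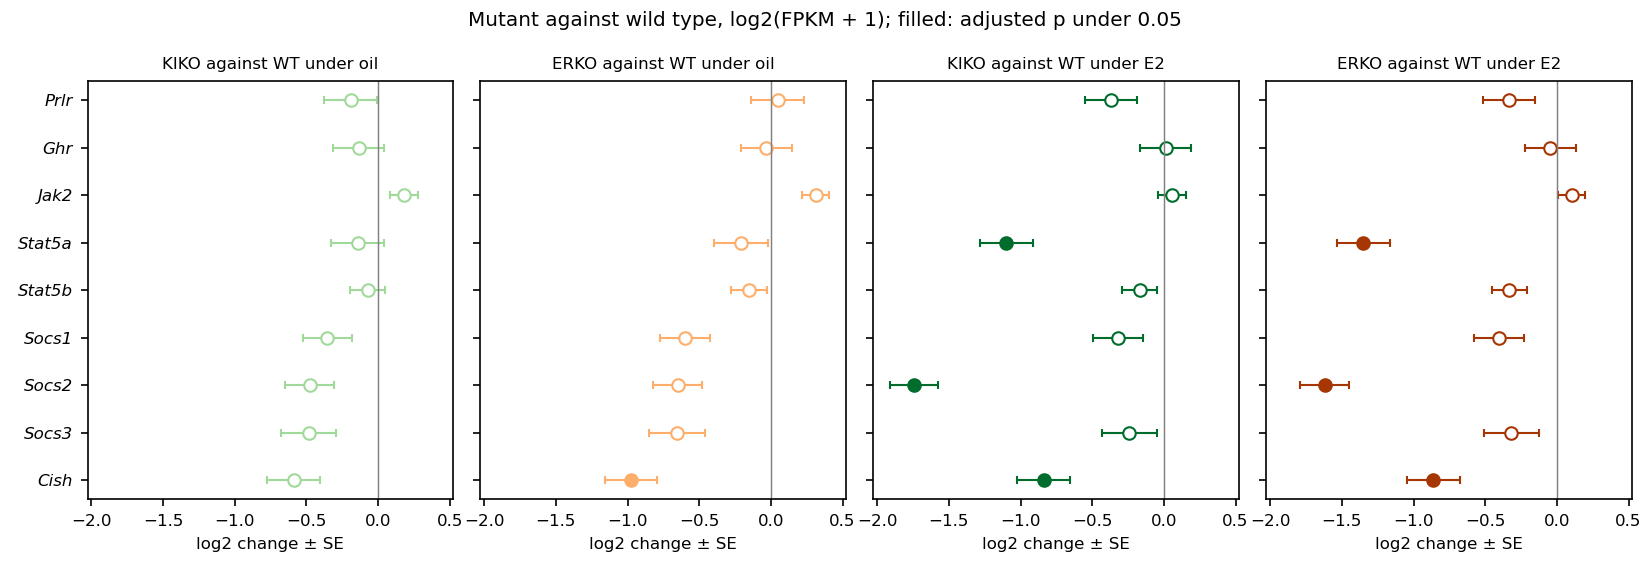
Difference of each of the 9 genes between mutant and WT (horizontal axis, difference in log2(FPKM + 1) of 3 against 3 libraries, with SE) for KIKO and ERKO under oil and under E2; filled points have a limma adjusted p below 0.05. Cish is filled in ERKO under oil (-0.98), and Stat5a, Socs2 and Cish are filled in both mutants under E2.

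Marker sums of cell types differed with oil too: of the 11 marker lists, 5 separated KIKO oil from WT oil without overlap and 4 separated ERKO oil from WT oil. These are sums of FPKM and do not count cells. Arcuate neuron markers summed to 4588 to 5410 FPKM in WT oil, 3323 to 4225 FPKM in KIKO oil and 2906 to 2990 FPKM in ERKO oil. Within this list, the Kiss1 mean was 504 FPKM in KIKO oil and 433 FPKM in WT oil. The Cartpt mean went the other way, at 394 and 522 FPKM. Oligodendrocyte markers, 5 of 5 with none at 0, summed to 1240 to 1684 FPKM in WT oil, 1111 to 1219 FPKM in KIKO oil and 1043 to 1211 FPKM in ERKO oil. These 2 lists and the magnocellular one were lower in every library of both mutants. Microglia and macrophage markers, 7 of 7 found and none at 0, summed to 73.4 to 83.9 FPKM in WT oil, 53.0 to 59.7 FPKM in KIKO oil and 50.3 to 91.3 FPKM in ERKO oil, so that they overlapped in ERKO. The 4 magnocellular markers summed to 4448 to 7266 FPKM in WT oil, 2634 to 4347 FPKM in KIKO oil and 1743 to 4294 FPKM in ERKO oil, with at most 1 of the 4 at 0 in a library. Astrocyte markers, 6 of 6 with none at 0, summed to 675 to 869 FPKM in WT oil, 637 to 678 FPKM in KIKO oil and 607 to 673 FPKM in ERKO oil. Among them, Gfap had means of 299, 187 and 142 FPKM in these groups, and Gja1 of 104, 95.0 and 103 FPKM. The neuron sum was higher in KIKO oil (806 to 838 FPKM) than in WT oil. Cish correlated over 18 libraries at r = 0.60 with the astrocyte sum, 0.52 with the microglial sum, 0.44 with the arcuate neuron sum and 0.39 with the oligodendrocyte sum. For the magnocellular sum r was 0.20, and for the neuron sum it was -0.26. Their part in the Cish result was not tested.

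Between the 2 mutants, none of the 9 genes passed. Of all genes, 0 passed with oil (0%; 340 had an unadjusted p below 0.05) and 0.0135% with E2. With oil, KIKO minus ERKO ran from -0.24 (Prlr) to 0.39 (Cish) over the 9 genes, with a largest SE of 0.19. With E2 it ran from -0.12 (Socs2) to 0.25 (Stat5a), and without ERKO E2 replicate 3 from -0.25 (Prlr) to 0.20 (Cish). The groups did not overlap for 3 of 9 genes with oil (Prlr, Jak2 and Cish; 28.1% of all genes) and for 0 of 9 with E2 (5.50%). A missed threshold does not show that KIKO and ERKO are alike in these genes.

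Over all 18 libraries, Socs2 and Stat5a followed each other most closely among the 9 genes, with a Pearson r of 0.85 on the log2(FPKM + 1) scale. Socs2 and Cish had an r of 0.79, and Stat5a and Stat5b one of 0.79. Prlr had an r of 0.72 with Stat5b and 0.67 with Ghr, and Jak2 one of -0.58 with Cish. Without ERKO E2 replicate 3 the order for Prlr reversed, at 0.52 with Stat5b and 0.58 with Ghr, and Jak2 ran most against Socs3 (-0.64) and then Cish (-0.60). Socs2 with Stat5a (0.88) remained the highest. The points share their groups, and the plot of Socs2 against Stat5a shows that the WT E2 libraries stand apart from the other 15, so these values describe the groups as much as any relation within them.

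**Figure D5:**
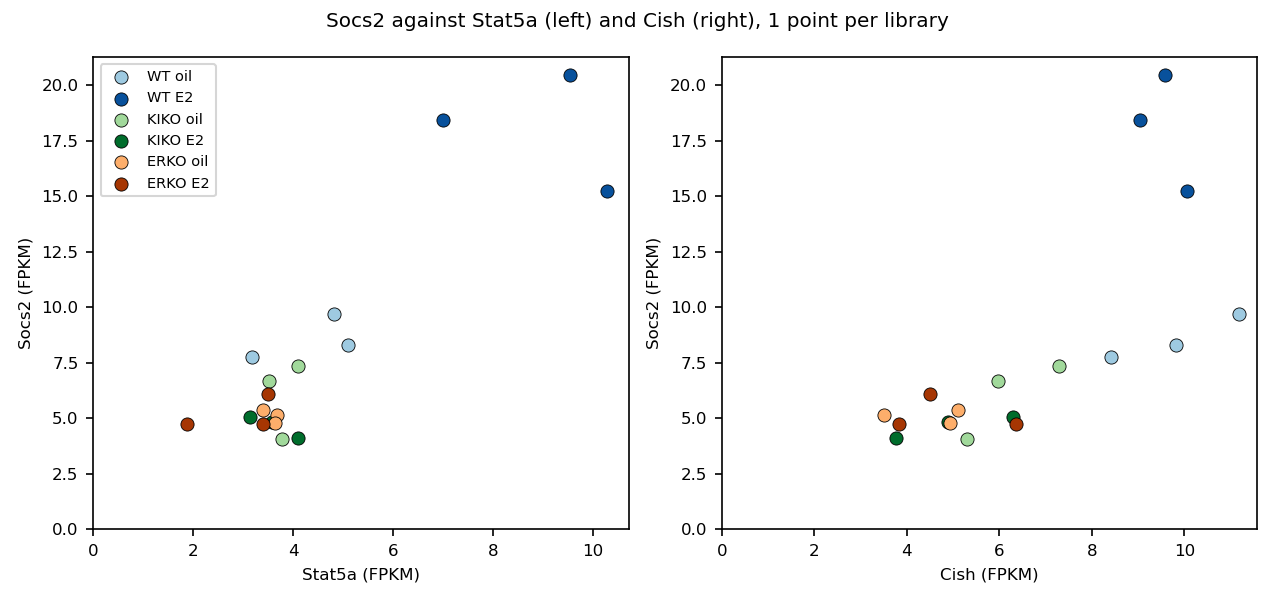
Socs2 FPKM (vertical axes) against Stat5a FPKM (left) and Cish FPKM (right), 1 point per library, coloured by group, with linear axes from 0. The 3 WT E2 libraries lie at 15.2 to 20.4 FPKM of Socs2 with the highest Stat5a values, while in the right panel they share the Cish range of the WT oil libraries.

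Among 12515 candidates (mean expression of 1 FPKM or more), those most like Socs2 over the 18 libraries were Spsb1 (r = 0.95), the collagen gene Col2a1 (0.93) and the transcription factor gene Myc (0.93). Spsb1 encodes a protein with a SOCS box. Stat5a was most like Chst11 (0.96), Rbms3 (0.96) and Smoc2 (0.95), which encode a chondroitin sulfotransferase, an RNA-binding protein and a secreted matrix protein. For Prlr they were the adaptor gene Skap2 (0.89), the protocadherin gene Pcdh9 (0.86) and the adhesion molecule gene Ncam2 (0.84), and for Ghr they were Msrb3 (0.89), Cpm (0.89) and Sema3g (0.88). Leaving out ERKO E2 replicate 3 gave 0.85, 0.79 and 0.76 for the 3 genes beside Prlr, and 0.93 to 0.97 for those beside Socs2 and Stat5a.

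The wider pathway was described with 53 further genes in 7 lists: the 2 ligands, 10 related cytokine receptors, 3 other JAK kinases, 5 other STAT factors, 4 other SOCS genes, 17 phosphatases and adaptors, and 12 genes known as STAT5 targets in some tissue. Of these, 45 passed the filter on low values, and 1 passed the test in 1 of the 11 comparisons, ERKO against WT under oil, where 1.43% of all genes did. It was Id1, a listed STAT5 target that encodes an inhibitor of DNA binding by basic helix-loop-helix factors, and is also a well-known target of bone morphogenetic proteins. Id1 was 25.3, 22.9 and 24.9 FPKM in WT oil and 14.7, 13.0 and 8.59 FPKM in ERKO oil, with no overlap (-0.98 ± 0.15, limma, adjusted p = 0.0157). In KIKO oil it was 15.8, 14.1 and 13.2 FPKM, and in WT E2 17.7, 16.4 and 16.7 FPKM. Neither group overlapped WT oil (21.9% and 15.8% of all genes did not), but Id1 did not pass in either comparison. The other 44 did not pass in ERKO against WT under oil, nor did the other 8 STAT5 targets tested.

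After E2 in WT, 0 of the 45 passed in either direction (0.785% of all genes did), 15 had a positive change, and the median change was -0.11, beside 0.01 over all genes and 0.04 over the 9 genes themselves. Under E2, the median of the 45 was 0.11 in KIKO against WT and -0.09 in ERKO against WT, beside 0.01 and -0.01 over all genes. The 9 genes had medians of -0.32 and -0.33 there. Stat3, the STAT factor used by leptin and interleukin 6 receptors, was 44.4 ± 4.41 FPKM in WT oil and 36.9 ± 2.07 FPKM in WT E2 (-0.26 ± 0.11, limma, adjusted p = 0.386). Jak1, a kinase of the interleukin 6 family receptors, was 32.3 ± 6.26 and 31.1 ± 1.29 FPKM, and Il6st, the shared subunit of those receptors, was 31.2 ± 7.20 and 29.4 ± 5.73 FPKM. Lepr, the leptin receptor gene, was 3.15 ± 1.04 and 1.97 ± 0.699 FPKM, and 3.99 ± 1.40 FPKM in KIKO E2 (0.74 ± 0.34 against WT E2, adjusted p = 0.549). None of these 4 genes passed in any comparison.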

How the data were processed

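RNA from the dissected arcuate nucleus was sequenced on an Illumina HiSeq2500, per the labels' protocols. For each library the authors deposited a gene table of FPKM values and confidence bounds, 23699 entries under 23235 symbols. Per the submitters' processing notes, TopHat2 2.0, Cuffdiff and the build mm10 were used. The annotation is not given in the sources used here. Only 991 of 20874 listed starts were within 1000 bases of a RefSeq start on GRCm38, so no positions are printed for the genes' rows: Prlr and Ghr are on chromosome 15, Jak2 on 19, Stat5a, Stat5b and Socs3 on 11, Socs1 on 16, Socs2 on 10 and Cish on 9. Entries sharing a symbol were summed, so isoforms are not separated, and between 5 and 21 entries per table had a FAIL status. Fragment numbers were worked out from the confidence bounds (whole, within 0.02, for 71.1% to 73.9% of low entries) and were not used in tests.

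The 14775 genes averaging 0.5 FPKM or more were fitted in limma 3.58.1 (R 4.3.3) on log2(FPKM + 1), which understates the change of low genes, with 6 group means, 18 libraries, 12 residual degrees of freedom and empirical Bayes moderation with its trend and robust options. Tests were two-sided, and p-values were Benjamini-Hochberg adjusted over all genes tested, with a threshold of 0.05. There were 11 comparisons. A change is the first group named minus the second. An exact permutation test of 3 against 3 libraries cannot go below 0.1 and was not used. Means, ratios, motif searches and plots were made with Python 3.11.15, numpy 2.4.6, pandas 2.3.3 and matplotlib 3.10.9. Scripts were tested on simulated data. The alternatives were a pseudocount of 0.1, no filter, a filter of 1 FPKM, quantile normalization, median ratio scaling, no variance trend, only the compared groups, a replicate block, library weights, and each library left out in turn. All 9 genes were named in each comparison; other pathway genes were named where they passed, as were Lepr, Il6st, Jak1, Stat3, Prl, Gh and Esr1, and the 3 genes most correlated with Prlr, Ghr, Socs2 and Stat5a. The members and lists were chosen with earlier results of these data known.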

Additional observations from a re-analysis of the deposited data

How the results depend on the processing

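The counts of the 9 genes past the threshold moved as follows. For E2 in WT the count was 2, and 1 with a pseudocount of 0.1 and with only the compared groups, and it ran from 0 (without WT E2 replicate 3) to 2 with a library left out. For ERKO against WT under oil it was 1, and 4 with quantile normalization, 3 with only the compared groups and 6 with library weights. With a library left out it ran from 0 (without WT oil replicate 2 or any ERKO oil library) to 5 (without ERKO E2 replicate 3). For KIKO against WT under E2 it was 3, and ran from 1 (without WT E2 replicate 2) to 3. For ERKO against WT under E2 it was 3, and 1 with only the compared groups. For the KIKO minus WT difference in E2 response it was 0, and 1 (Socs2) with quantile normalization, median ratio scaling or library weights, and 0 to 1 with a library left out. The cause was not tested. The other 6 counts stayed at 0 in every alternative run. Over all genes, counts moved more: from 71 to 397 for E2 in WT (116), from 1 to 3319 for ERKO against WT under oil (212), from 55 to 1030 for KIKO against WT under E2 (140) and from 13 to 1303 for ERKO against WT under E2 (192). Of 99 differences of the 9 genes, 23 had an unadjusted p below 0.05 and none of these changed sign; of the other 76, 35 changed sign in some alternative, with values from -0.17 to 0.23, and 1 passed in any (Stat5b, ERKO against WT under oil).

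Same-numbered libraries had correlated deviations from -0.393 to 0.526 over 45 pairs, and in 1 of 15 group pairs all were over 0.1. The labels do not say what the numbers mean. These correlations cannot show whether same-numbered libraries share a batch, since some pairs were correlated and others not. With the replicate number as a block, the counts were 2 for E2 in WT, 1 for ERKO against WT under oil, and 2 each for KIKO and ERKO against WT under E2, where Cish was lost (adjusted p = 0.0747 and 0.0556); the other 7 counts were 0. With 3 libraries a group, and as few as 57.0 fragments for Socs1 in a library, small differences in the lower genes were not detectable.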
